A study of Mus musculus with 5 samples.

Results

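The Dlk1-Dio3 locus is an imprinted domain on mouse chromosome 12, and 100 of the 1900 miRNA probes on the arrays carried the numbers of its miRNAs outside the group antisense to Rtl1. Members were chosen by their miRNA number, with any letter and either arm, and not by their measured values. Earlier results of these data were known when the list was chosen. A probe was called bright where its intensity, divided by the detection level of the array, had a geometric mean of at least 2 over the 5 arrays. The detection level of an array was the 95th percentile of its 4 empty spots. The rule averages the same 5 arrays that are compared, so a miRNA low on some arrays could pass through those where it was high. By this rule 12 of the 100 members were bright, among 298 bright miRNAs in all, and 88 members were near background and are described apart.

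miRNA levels were measured in total RNA of back skin from female mice, on single-colour (Cy3) arrays that carried 2 spots for each miRNA. Aged mice were 2 years old and young mice 8 weeks old, and a full-thickness punch wound was made in the telogen (resting) phase of the hair cycle. The 5 conditions were aged unwounded skin (aged D0), aged wounds on days 3, 5 and 7 (aged D3, D5 and D7), and young unwounded skin (young D0). No transgene or drug was named in the labels, the strain and the number of animals behind each RNA were not given in the sources used here, and young wounds were not analysed here. Each condition had 1 array, so no value below has a biological replicate and no test across samples was possible. The range given beside a ratio is that of its 2 spots and describes the arrays only. Because whole skin was profiled, fewer cells of a type and less miRNA per cell cannot be told apart.

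The miRNAs of this locus are processed from long non-coding transcripts that are expressed from the maternal chromosome, including Meg3, Rian and the host transcript Mirg. The largest set of precursors lies downstream of Rian and is often called the miR-379/miR-410 cluster. These miRNAs are known for high levels in the embryo, in brain and in mesenchymal tissues, and for lower levels in many adult tissues. A miRNA recognises its targets mainly through its seed, the bases 2 to 8 from the 5′ end.

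Of the 100 members, 96 matched a RefSeq (GRCm38.p6) mature miRNA by name, all with the sequence printed on the array, and 95 of these lay on chromosome 12. The exception was miR-496b, near background on these arrays, which RefSeq places on chromosome 19 and which therefore goes against the label of the group. The mature sequences of the 12 bright members are shown from the brightest to the dimmest, because every ratio below rests on these probes. Capitals mark the seed.
miR-341-5p: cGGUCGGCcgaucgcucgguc
miR-494-3p: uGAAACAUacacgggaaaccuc
miR-3072-5p: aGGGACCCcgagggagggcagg
miR-668-3p: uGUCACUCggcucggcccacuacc
miR-329-3p: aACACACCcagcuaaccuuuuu
miR-665-3p: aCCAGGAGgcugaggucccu
miR-379-5p: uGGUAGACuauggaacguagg
miR-3070-2-3p: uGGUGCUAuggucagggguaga
miR-541-5p: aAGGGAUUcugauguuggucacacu
miR-411-5p: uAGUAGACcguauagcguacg
miR-376b-3p: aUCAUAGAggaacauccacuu
miR-411-3p: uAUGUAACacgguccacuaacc

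All 12 lie on the plus strand of chromosome 12 in GRCm38.p6. Upstream of Rian lie miR-665-3p (chr12:109586368-109586387) and miR-3070-2-3p (chr12:109588648-109588669), and miR-341-5p (chr12:109611521-109611541) lies within the Rian gene. The other 9 lie downstream of Rian, from miR-379-5p (chr12:109709065-109709085) to miR-3072-5p (chr12:109747893-109747914). Over the whole locus, 17 probes of 9 precursor genes were upstream of Rian, 6 probes of 3 genes within it and 76 probes of 38 genes downstream.

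No seed was shared among the 12 bright members. The seed of miR-411-3p was shared with the near-background miR-379-3p, that of miR-379-5p with miR-1193-5p, and that of miR-3070-2-3p with miR-3070-3p. Near-identical probes can capture each other's target, and miR-411-3p differed from miR-379-3p at 2 bases, miR-3070-2-3p from miR-3070-3p at 2 and miR-376b-3p from miR-376a-3p at 3, so these values are uncertain to that extent. How far such cross-capture went was not tested. The 12 sequences differed widely in base composition, with a GC content between 38.1% for miR-376b-3p and 77.3% for miR-3072-5p.

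The arrays themselves differed in brightness. The detection level was 105.5 on aged D0, 58.3 on aged D3, 61.1 on aged D5, 99.03 on aged D7 and 107.2 on young D0, and between 589 and 1768 miRNAs were above it. The aged D0 array was dimmer than the young D0 array for 278 of the 286 other bright miRNAs, with a median scanned ratio of 0.463. Ratios are therefore given after quantile normalization over the 5 arrays, on intensities to which an offset of 50 had been added, which understates the change of dim miRNAs. Scanned intensities, in arbitrary units and not normalized, are given first for each member. They are not levels that can be set between miRNAs, since probes differ in capture.

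**Figure D1:**
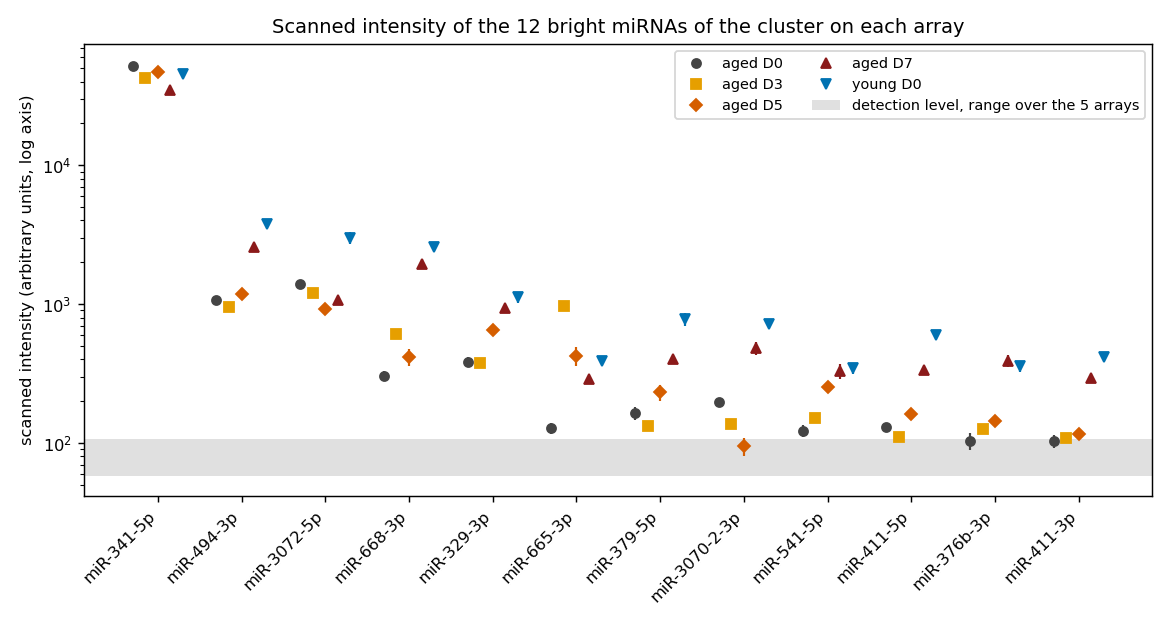
Scanned intensity (arbitrary units, log axis) of the 12 bright miRNAs on each of the 5 arrays, with points for the mean of 2 spots, lines for the range of the spots and a grey band for the detection levels of the 5 arrays (58.3 to 107.2). miR-341-5p sits between 34795 and 52105, and miR-376b-3p and miR-411-3p lie in the band on aged D0.

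miR-341-5p, the bright member within Rian, gave the brightest probe of the group by far. Its scanned intensity was 52105 on aged D0, 42418 on aged D3, 46920 on aged D5, 34795 on aged D7 and 45084 on young D0. It was the second brightest of the 1900 miRNAs on every array, at 77.5% to 96.2% of the brightest. Quantile normalization keeps such a rank, so its ratio was 1 at D3, D5 and D7 over D0 and 1.15 for aged over young D0. Under other settings it ran from 0.528 to 1.69 at D3, from 0.675 to 2.64 at D5, from 0.409 to 1.09 at D7 and from 1.04 to 3.89 for aged over young D0, so no direction after wounding can be read for it. The other arm of the same precursor, miR-341-3p, had 140 on aged D0, 132 on aged D3, 96.0 on aged D5, 245 on aged D7 and 288 on young D0. The 5p probe was dimmest on aged D7, where the 3p probe had its second highest value, but the 3p probe was never more than 2.68 times the detection level. The 5p sequence has a GC content of 76.2%, and the part of probe affinity in its brightness was not tested.

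In aged unwounded skin, the bright members lay low against young skin. Of the 12, 5 were at least 2-fold lower in aged than in young D0 skin and 0 were at least 2-fold higher, beside 11.4% and 5.37% of all 298 bright miRNAs. Of these 5, all but miR-668-3p were under 2 times the detection level on aged D0 and passed the bright limit through other arrays. The rule can thus favour a low reading on aged D0, and this count is not separate support for one. The median ratio was 0.607 over the 12 members (log2 -0.72) and 1.09 over the other 286 bright miRNAs (log2 0.12). Members were below 1 for 9 of 12 and others for 112 of 286. These are levels relative to the rest of the array. In scanned intensity 11 of the 12 members were lower on aged D0, as were 278 of the other 286 bright miRNAs, and scaling to the 75th percentile set the members at 0.971 and the others at 1.56, so that a fall in the absolute level cannot be read from these arrays.

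The largest difference was that of miR-668-3p. Its scanned intensity was 304 on aged D0, 608 on aged D3, 418 on aged D5, 1959 on aged D7 and 2589 on young D0, so that the young array and the aged D7 array stood well above the other 3. Its aged over young D0 ratio was 0.370, with spots at 0.328 and 0.418. Under every other processing setting tried this ratio stayed below 1, between 0.117 and 0.393.

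Both arms of the miR-411 precursor were bright. miR-411-5p had a scanned intensity of 130 on aged D0, 110 on aged D3, 162 on aged D5, 337 on aged D7 and 600 on young D0. miR-411-3p had 104, 109, 116, 296 and 415 in the same order, and was not above the detection level on aged D0. In scanned intensity both probes were highest on young D0 and second highest on aged D7. After quantile normalization miR-411-3p was highest on aged D7 (log2 7.94), beside 7.82 on young D0. The aged over young D0 ratio was 0.439 for the 5p arm, and after quantile normalization the 3p arm was at least 2.47-fold higher in young skin. Over the other settings the aged over young D0 ratio of the 3p arm ran from 0.133 to 0.841.

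The neighbour of miR-411 in the locus, miR-379-5p, is the miRNA that gives the downstream cluster its name. It had a scanned intensity of 164 on aged D0, 132 on aged D3, 231 on aged D5, 400 on aged D7 and 778 on young D0. The order of the 5 arrays was that of miR-411-5p. Its aged over young D0 ratio was 0.487. For both miRNAs the ratio stayed below 1 under every processing setting tried, up to 0.712 for miR-379-5p and 0.730 for miR-411-5p.

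miR-376b-3p belongs to a family whose seed is known as a site of adenosine-to-inosine editing in brain. Its scanned intensity was 103 on aged D0, 126.6 on aged D3, 143 on aged D5, 390 on aged D7 and 356 on young D0. It was not above the detection level on aged D0, and after quantile normalization was at least 2.17-fold higher in young skin. Over the other settings its aged over young D0 ratio ran from 0.272 to 0.98, so that the size of this difference depended on the processing. With aged D7 above young D0, it was the only bright member apart from miR-341-5p and miR-665-3p whose highest scanned intensity was not on the young array. A highest scanned intensity on young D0 was common to 75% of the bright members and 76.6% of the other 286 bright miRNAs.

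The remaining members differed by less than 2-fold between aged and young skin. The ratios were 0.602 for miR-665-3p, 0.611 for miR-541-5p, 0.672 for miR-3070-2-3p and 0.783 for miR-494-3p. miR-329-3p (1.06) and miR-3072-5p (1.27) were above 1. The side of 1 depended on the processing for 4 of these 6. The range over all processing settings was 0.329 to 1.11 for miR-665-3p, 0.356 to 1.199 for miR-541-5p, 0.345 to 1.16 for miR-329-3p and 0.467 to 1.57 for miR-3072-5p.

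**Figure D2:**
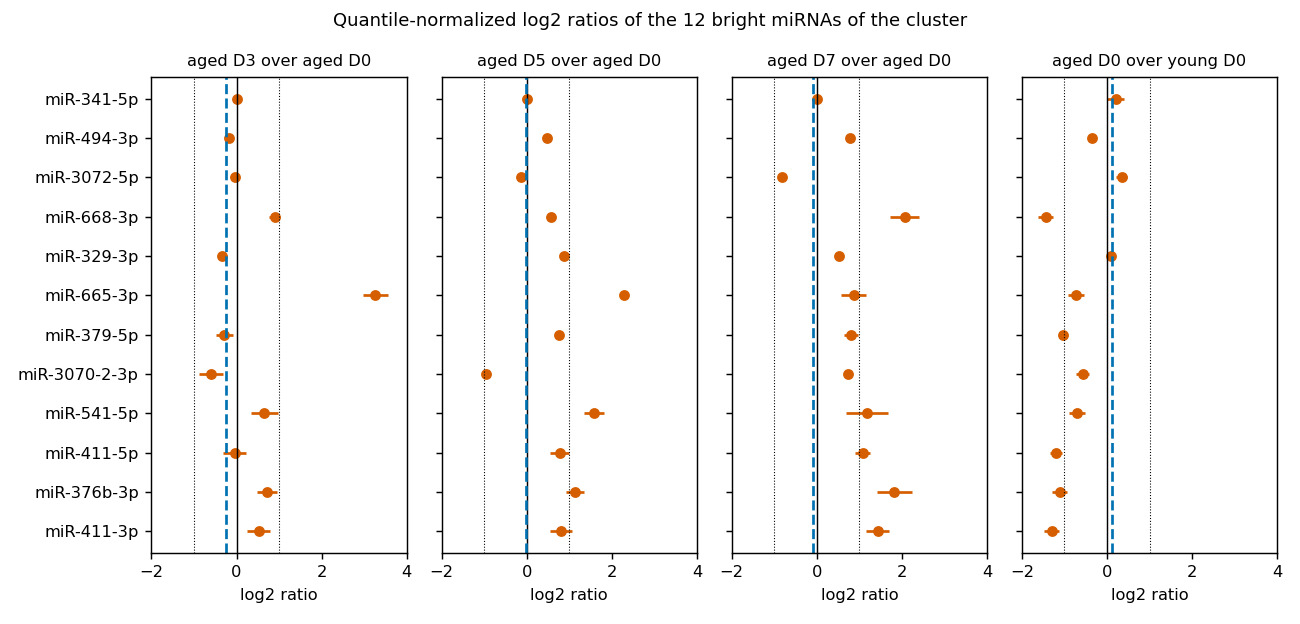
Log2 ratio after quantile normalization of each of the 12 bright miRNAs (points, mean of 2 spots; lines, range of the spots) in the 4 comparisons. The dashed blue line is the median of the other 286 bright miRNAs, and dotted lines mark 2-fold. Most members sit right of the blue line at D5 and D7 and left of it for aged over young D0, and miR-665-3p stands alone at D3.

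On day 3 after wounding, the members as a group hardly differed from the aged unwounded array. Their median ratio was 0.991 (log2 -0.01), beside 0.846 (log2 -0.24) over the other bright miRNAs. 1 of 12 was at least 2-fold higher and 0 were 2-fold lower, where 17.4% and 15.1% of all bright miRNAs were. Ratios of the other 11 members ran from 0.662 for miR-3070-2-3p to 1.86 for miR-668-3p.

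The exception was miR-665-3p, from a precursor upstream of Rian. Its scanned intensity was 128 on aged D0, 967 on aged D3, 425 on aged D5, 290 on aged D7 and 391 on young D0. Day 3 stood above every other array. The D3 over D0 ratio was 9.58, with spots at 7.84 and 11.7, and only 4 of the 298 bright miRNAs had a larger ratio. At D5 the ratio was 4.85 (spots 4.72 and 4.99) and at D7 it was 1.83. The D3 over D0 ratio ranged from 4.98 to 20.7 over the processing settings tried.

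The opposite arm of that precursor did not follow. miR-665-5p, near background by the rule, had a scanned intensity of 150 on aged D0, 108 on aged D3, 140 on aged D5, 154 on aged D7 and 240 on young D0. Its own ratio to aged D0 was 0.757 at D3, 1.16 at D5 and 0.687 at D7, close to background, where ratios are compressed. Of the 2 other bright members with a GC content above 60% and a precursor outside Rian, miR-668-3p had a D3 over D0 ratio of 1.86 and miR-3072-5p of 0.983. Among bright miRNAs above the median GC content of 50%, the 139 non-members had a median D3 over D0 ratio of 1.13.

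On day 5, more of the downstream cluster lay above the unwounded level. 3 of 12 members were at least 2-fold higher and 0 were 2-fold lower, where 9.06% and 8.39% of all bright miRNAs were. The median ratio was 1.70 (log2 0.76) over members and 0.981 (log2 -0.03) over the others. The 3 members were miR-665-3p, miR-541-5p and miR-376b-3p, each under 2 times the detection level on aged D0 and bright only through other arrays.

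miR-541-5p had a scanned intensity of 122 on aged D0, 152 on aged D3, 252 on aged D5, 330 on aged D7 and 347 on young D0. In scanned intensity each later wound array was thus brighter than the one before, and aged D7 lay close to young D0. After quantile normalization miR-541-5p was highest on aged D5 (log2 8.47), beside 8.07 on aged D7 and 7.61 on young D0. Its ratio to D0 was 1.58 at D3, 2.97 at D5 (spots 2.52 and 3.50) and 2.26 at D7. The D5 over D0 ratio ranged from 1.62 to 5.42 over the processing settings tried. After quantile normalization miR-376b-3p, not above the detection level on aged D0, was at least 1.64-fold higher at D3, 2.19-fold at D5 and 3.53-fold at D7. Over the other settings its ratio ran from 0.818 to 2.11 at D3, where the spike-in scaling turned the direction. It ran from 1.12 to 3.37 at D5 and from 2.24 to 6.53 at D7. The bounds thus hold for quantile normalization only, and they leave out the spread between spots. The D3 ratio of miR-541-5p also changed side, between 0.823 and 2.17.

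miR-329-3p and miR-494-3p have both been studied as miRNAs whose inhibition favours vessel growth after ischemia. miR-329-3p had a scanned intensity of 384 on aged D0, 374 on aged D3, 654 on aged D5, 935 on aged D7 and 1118 on young D0. Its ratio to D0 was 0.793 at D3, 1.83 at D5 and 1.44 at D7. miR-494-3p had 1077 on aged D0, 951 on aged D3, 1179 on aged D5, 2571 on aged D7 and 3767 on young D0. Its ratios were 0.891, 1.38 and 1.71. Neither reached 2-fold after quantile normalization, and both were lowest in scanned intensity on aged D3. Other settings took miR-329-3p to 2.20 at D5 and 2.43 at D7 and miR-494-3p to 2.404 at D7, and the spike-in scaling set miR-494-3p at 0.826 at D5.

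The D5 ratio was 1.69 for miR-379-5p and 1.71 for miR-411-5p. For these neighbours it followed ratios of 0.818 and 0.969 at D3, and over the other settings it ran from 1.10 to 2.07 and from 0.994 to 2.17. miR-3070-2-3p went the other way: its scanned intensity was 197 on aged D0, 136.5 on aged D3, 94.7 on aged D5, 485 on aged D7 and 722 on young D0. Its D5 over D0 ratio of 0.514 was the lowest of the 12 members, and from D5 to D7 it was 3.21-fold higher, the largest step of any bright member between these days.

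On day 7, 5 of 12 members were at least 2-fold higher than on aged D0 and 0 were 2-fold lower, where 10.4% and 8.39% of all bright miRNAs were. The median ratio was 1.79 (log2 0.84) over members and 0.944 (log2 -0.08) over the others. The 5 members were miR-668-3p, miR-376b-3p, miR-411-3p, miR-541-5p and miR-411-5p, and all of them come from precursors downstream of Rian. On aged D0 the last 4 were at 0.979, 0.983, 1.16 and 1.23 times the detection level, under the bright limit of 2. They passed it through other arrays, with 3.94, 2.99, 3.33 and 3.41 on aged D7. The bright rule can thus favour a rise from aged D0, and this count is not separate support for one. The ratio of miR-668-3p was 4.18, with spots at 3.30 and 5.30, and it ranged from 3.93 to 6.49 over the processing settings tried. After quantile normalization miR-411-3p was at least 2.69-fold higher (1.67 to 7.43 over the other settings), and miR-411-5p had a ratio of 2.10 (1.52 to 3.06).

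miR-3072-5p, the last precursor of the downstream group, stood apart from its neighbours. Its scanned intensity was 1397 on aged D0, 1202 on aged D3, 924 on aged D5, 1062 on aged D7 and 3011 on young D0. In scanned intensity every wound array was below the unwounded aged array. The median of the other bright miRNAs was also below it at D3 and D5 (scanned ratios 0.862 and 0.815), but not at D7 (1.34). Over the processing settings tried, the D3 over D0 ratio of miR-3072-5p changed side, between 0.518 and 1.23. The D7 over D0 ratio was 0.570, the lowest of the 12, while the other 8 bright downstream members had ratios between 1.44 and 4.18. Over all processing settings tried, its D7 ratio stayed between 0.458 and 0.756.

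All 4 comparisons use the aged D0 array, 3 of them as the denominator and 1 as the numerator, so a low reading of these miRNAs on that array alone would raise the first 3 and lower the last. Against the young D0 array instead, which these 3 ratios share, the members' median ratio was 0.727 for aged D3, 1.05 for aged D5 and 1.13 for aged D7. The other bright miRNAs had 0.981, 1.12 and 0.996. On aged D7 all 12 members lay between 0.724 and 1.63 of young D0, so that 0 of 12 were at least 2-fold higher and 0 were 2-fold lower, where 3.69% and 6.71% of all bright miRNAs were. Aged D3 was thus below young D0 for the members' median, and aged D7 was near it. Between days within the wounds, without the D0 arrays, the members' median ratio was 1.28 for D5 over D3 and 1.13 for D7 over D5, beside 1.11 and 0.913 for the others.

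Base composition split the 12 members. The 7 at or under the median GC content of 50% were miR-494-3p, miR-329-3p, miR-379-5p, miR-541-5p, miR-411-5p, miR-376b-3p and miR-411-3p, all from the downstream group. Their median ratio was 0.969 at D3, 1.75 at D5, 2.10 at D7 and 0.487 for aged over young D0. The 147 other bright miRNAs of like GC content had 0.719, 0.909, 0.995 and 1.04. At D5 each of the 7 lay between 1.38 and 2.97, and at D7 between 1.44 and 3.53. The 5 members with more GC were spread wider, from 0.514 to 4.85 at D5 and from 0.570 to 4.18 at D7.

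The Rtl1 antisense miRNAs are transcribed within the same locus, and 2 of their 11 probes were bright. Their median log2 ratio was 0.06 at D3, 1.05 at D5, 1.16 at D7 and -1.27 for aged over young D0. These are midpoints of 2 probes that lay apart, at -0.36 and 0.48 at D3 and 0.87 and 1.23 at D5. At D7 the 2 probes lay at 0.63 and 1.69, and for aged over young D0 at -1.77 and -0.77. The bright members downstream of Rian had medians of -0.02, 0.77, 1.07 and -1.04. The 2 groups share every array, so the likeness of these medians is a description of 5 arrays only.

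Marker miRNAs of other cells also differed between the arrays. The 5 leukocyte miRNAs had a median log2 ratio of 1.55 at D3, 1.01 at D5, 2.13 at D7 and -1.90 for aged over young D0, with a summed scanned intensity from 901 on aged D0 to 5829 on young D0 and 4 of 5 above the detection level on aged D0. The 5 fibroblast miRNAs had -0.35, 0.24, 1.12 and 0.05, with sums from 5130 on aged D3 to 20067 on young D0 and all 5 above the level on every array. The 7 keratinocyte miRNAs had -1.23, -0.90, -0.81 and 0.54, with sums from 16244 on aged D3 to 46538 on young D0. The 4 skeletal muscle miRNAs had -1.77, -0.96, -0.96 and -0.05, with sums from 6780 on aged D3 to 64973 on young D0. The bright erythroid miRNAs, 2 of 3, had -1.41, -0.63, -1.65 and 1.09, the bright endothelial one, 1 of 2, had -0.49, 0.22, 0.03 and 0.09, and the hypoxia-responsive miR-210-3p had 0.39, -0.20, -0.70 and 1.46. The part of a changed cell mixture in the members' ratios was not tested.

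Most of the locus was dim in skin. Of the 88 near-background members, 19 were above the detection level on aged D0, 85 on aged D3, 60 on aged D5, 82 on aged D7 and 38 on young D0, where the share among the 1514 other near-background miRNAs ran from 18.3% on aged D0 to 91.5% on aged D3. The high count on aged D3 was thus common to members and others. It did not simply follow the detection level, which was 58.3 on aged D3, 61.1 on aged D5 and 99.03 on aged D7. On aged D5 and aged D7 the share among the others was 47.1% and 77.9%. The part of the empty spots in these counts was not tested. A stricter limit of 2 times the level was passed by 0 members on aged D0, 3 on aged D3, 4 on aged D5, 7 on aged D7 and 14 on young D0.

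As shares, these were 0%, 3.41%, 4.55%, 7.95% and 15.9% of the 88 members, beside 0.0661%, 3.76%, 0.793%, 0.925% and 2.05% of the 1514 others. The share among members was thus above that among others on aged D5, aged D7 and young D0, and not on aged D0 or aged D3. On any array, 16 of 88 members were clear of background in this sense, and 72 never were. Among the 1514 others, 85 were clear on some array, or 5.61% beside 18.2% of the members.

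**Figure D3:**
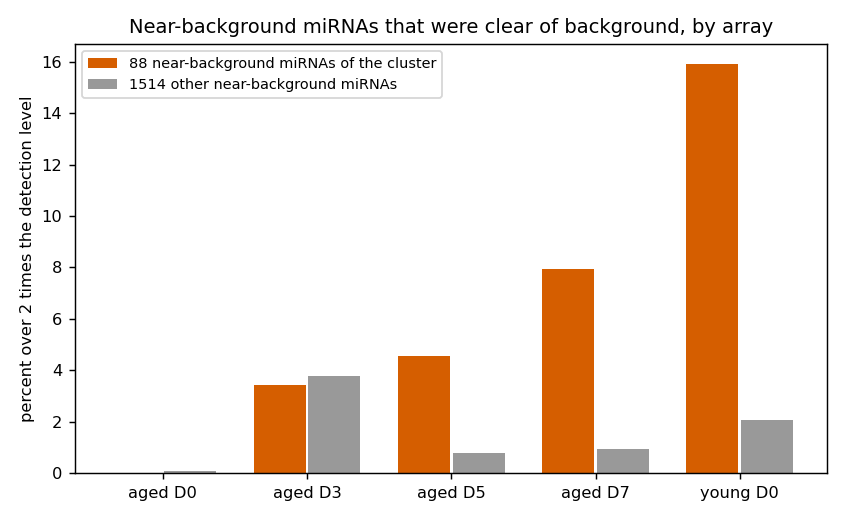
Percent of near-background miRNAs whose scanned intensity was over 2 times the detection level of the array, for the 88 members of the locus and the 1514 other miRNAs, on each of the 5 arrays. Members reach 15.9% on young D0 and 7.95% on aged D7, where the others have 2.05% and 0.925%.

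The 14 that were clear on young D0 were led by the 5p arms of miR-299b (341) and miR-299a (320), miR-376c-3p (330) and miR-337-3p (313). The precursors of miR-299a and miR-299b lie on opposite strands and their probes overlap without a mismatch, so these 2 values are not separate measurements. The others were miR-341-3p, miR-337-5p, miR-381-3p, miR-665-5p, miR-379-3p, miR-376b-5p, miR-300-3p, miR-377-3p, miR-770-3p and miR-409-3p, with scanned intensities from 219 to 288.

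Of these 14, 6 were also clear on aged D7: miR-376c-3p (260), miR-381-3p (256), miR-341-3p (245), miR-337-5p (225), miR-299a-5p (218) and miR-409-3p (207). The seventh on aged D7 was miR-376a-3p, with 87.9 on aged D0, 91.3 on aged D3, 79.4 on aged D5, 246 on aged D7 and 166 on young D0. miR-376c-3p had 90.6, 83.0 and 88.01 on aged D0, D3 and D5 and 330 on young D0, so that it was below the detection level on aged D0 and well clear of it on aged D7 and young D0. Both belong to the miR-376 family, with the bright miR-376b-3p. miR-134-5p, known from dendrites of neurons, had 115, 117, 126, 170 and 150 in the same order and was clear of background on aged D3 and D5 only, where the empty spots were dim.

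**Figure D4:**
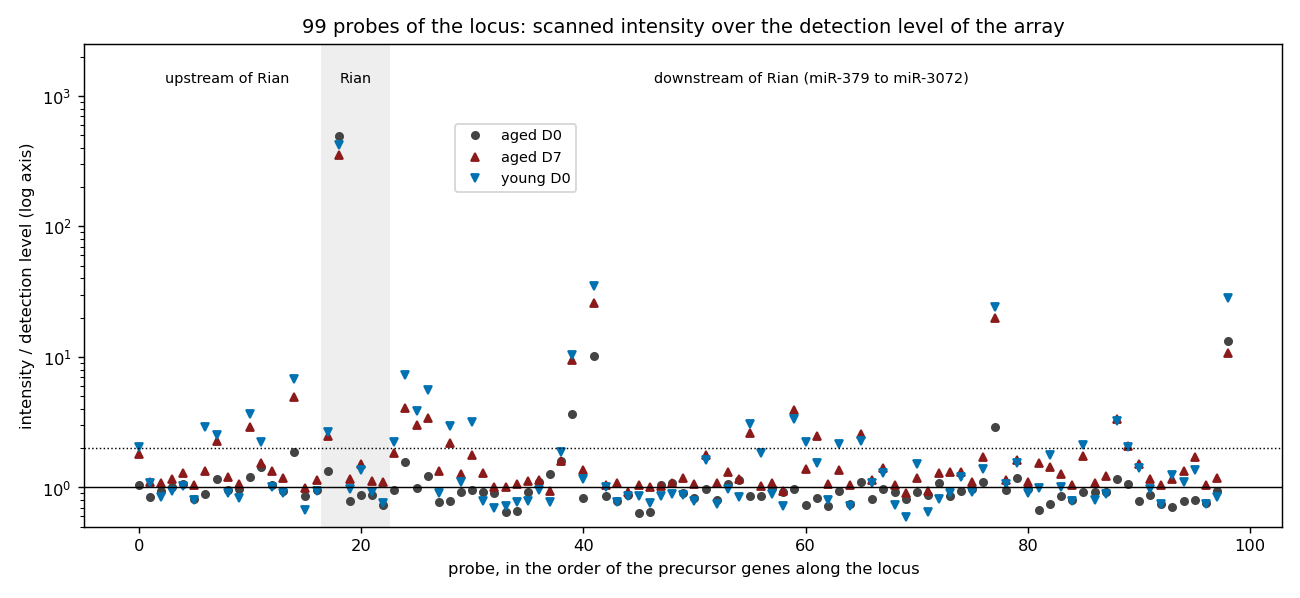
Scanned intensity over the detection level of the array (log axis) for the 99 probes of the locus in the order of their precursor genes, on aged D0, aged D7 and young D0; the solid line is the detection level and the dotted line 2 times it. Signals over the dotted line are few and lie in all 3 sections, and most of them are higher on aged D7 and young D0 than on aged D0.

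By position, 6 of the 17 probes upstream of Rian were over 2 times the detection level on young D0, 2 of the 6 within Rian and 18 of the 76 downstream. On aged D0 the counts were 0, 1 and 4. The share of the 1514 other near-background miRNAs over this limit was also lower on aged D0 (0.0661%) than on young D0 (2.05%). The counts by position also hold the 12 bright members, so they are not like for like with that share. Over the 88 near-background members alone the share was 0% on aged D0 and 15.9% on young D0. A lower share on aged D0 was thus common to near-background members and others. Bright miRNAs outside the locus were not counted over this limit. Over all 76 downstream probes, bright or not, the aged over young D0 ratio was below 1 for 53, and the D7 over D0 ratio was above 1 for 53. The same held for 112 and 128 of the 286 other bright miRNAs, and for 662 and 685 of the 1514 other near-background miRNAs. Over the 88 near-background members the median ratio of aged over young D0 was 0.95, with 58 below 1, beside 1.02 over the 1514 others. Ratios so near background hold the empty signal in both terms, and their size is not read here.

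The members just inside the limit for a bright probe were miR-376b-3p, at 2.31 times the detection level, and miR-411-3p, at 2.09. Just outside were miR-341-3p (1.99), miR-381-3p (1.96) and miR-665-5p (1.84).

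**Figure D5:**
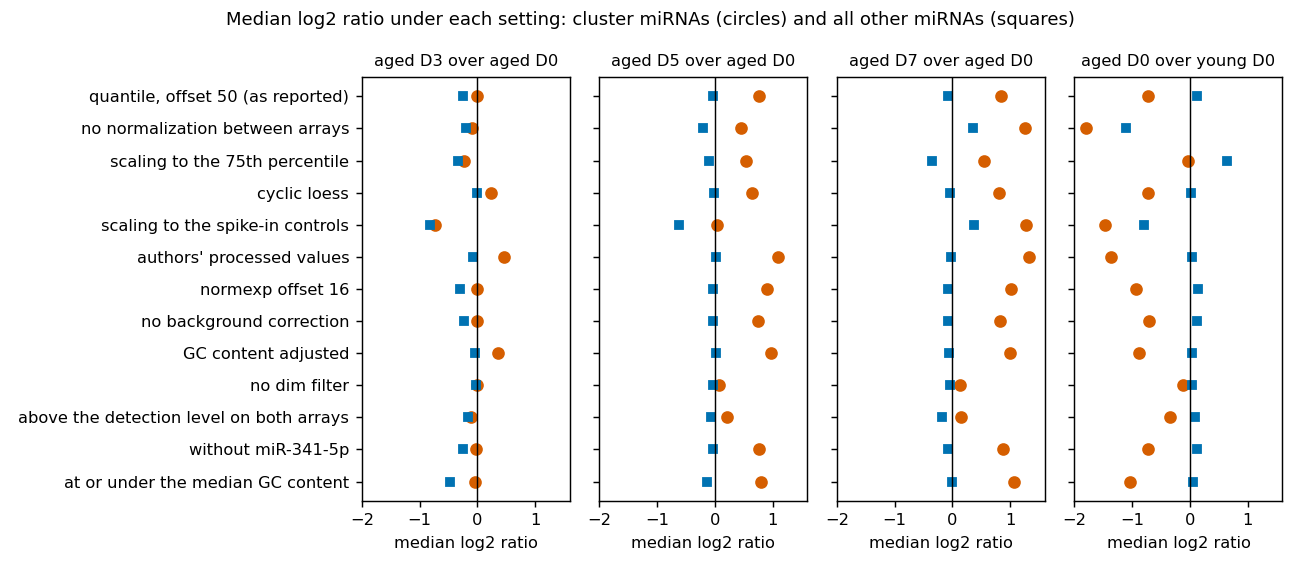
Median log2 ratio of the members (circles) and of the other miRNAs (squares) in the 4 comparisons under each processing setting tried, over bright miRNAs except where the row states another filter. In every row the circle lies right of the square for D3, D5 and D7 over D0 and left of it for aged over young D0, while the distance from 0 changes with the scaling.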

How the data were processed

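Total RNA from each condition was labelled and hybridised by a service provider (LC Sciences). The authors deposited, for each of the 5 arrays, the scanner's intensity of every spot on a linear scale, not normalized, with empty local-background columns. They also deposited a table of processed intensity values, linear and with column medians of 5.43 to 8.09, whose normalization is not given in the sources used here. Over bright miRNAs its log2 values correlated with the scanned ones at 0.969 to 0.999.

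Spots were corrected with limma 3.58.1 (R 4.3.3) normexp, offset 50, on the spot intensities alone. The log2 values of miRNA spots were then quantile normalized across all 5 arrays, and the mean of both spots was taken. The number of arrays, 1 in each condition, limits the precision. The SD of a log2 ratio from repeat spots was 0.16 at D3, 0.15 at D5, 0.26 at D7 and 0.14 for aged over young D0. Samples were grouped from their labels. Where a miRNA was not above the detection level on the dimmer array, "at least" gives a bound. The brighter array's value is divided by the miRNA's own value on the dimmer array, or by the lowest value called detected there if that is higher. For miR-376b-3p and miR-411-3p the own value was used, so the bound is the plain ratio. It allows for no spread between spots and holds for quantile normalization only. The steps were run on simulated copies of the aged D0 array. These copies did not hold the full differences in brightness and detection level between the real arrays, so the steps were not tested under those.

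The members and the marker lists were chosen with earlier results of these data known. Members named were all bright ones, the opposite arms of those described, and near-background ones that stood out on an array. Alternatives were cyclic loess, no normalization, scaling to 11 spike-in controls or to the 75th percentile, the authors' values, an offset of 16, no background correction, a GC adjustment, no filter on dim probes, and detection on both arrays. Leaving out miR-341-5p, and using only miRNAs at or under the median GC content, were added after seeing the data. Other tables were made with Python 3.11.15 and pandas 2.3.3.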

Additional observations from a re-analysis of the deposited data

How the results depend on the processing

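No paired analysis was possible because only 1 array was run in every group. The difference between the members' median log2 ratio and that of the other bright miRNAs kept its direction in all 4 comparisons under every alternative. No normalization, the 75th percentile and the spike-in scaling shift all miRNAs of an array alike, so for this difference they are 1 check. The spot SD is that of a single miRNA's log2 ratio. It does not measure the spread of this difference and serves only to choose what is listed. Smaller moves are left out, such as that at D3 to 0.096 with no normalization, the 75th percentile and the spike-in scaling. The size of the difference moved by more than the spot SD in the following cases, and the cause was not tested. For D3 over D0 it was 0.23 as reported, 0.54 with the authors' values, 0.0215 without the dim filter, 0.036 with detection on both arrays, 0.40 after the GC adjustment and 0.43 at or under the median GC content. For D5 over D0 (0.79) the values were 1.06, 0.0905, 0.27, 0.95 and 0.94 in the same order. For D7 over D0 (0.92) they were 1.36 with the authors' values, 0.16 without the dim filter and 0.34 with detection on both arrays. For aged over young D0 (-0.84) they were -0.68 with no normalization, with the 75th percentile and with the spike-in scaling, -1.41 with the authors' values, -1.06 with an offset of 16, -0.16 without the dim filter, -0.43 with detection on both arrays and -1.09 at or under the median GC content. The filters admit dim members, whose ratios lie near 1.

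Counts of members at least 2-fold apart moved more. Higher at D3 (1 as reported) were 2 with no normalization, with cyclic loess and with an offset of 16, 3 after the GC adjustment and 5 with the authors' values. Lower at D3 (0) was 1 with the spike-in scaling and 1 without the dim filter. Higher at D5 (3) were 1 with the spike-in scaling and 7 with the authors' values. They were 2 with no normalization, with the 75th percentile and with detection on both arrays, and 4 with an offset of 16 and after the GC adjustment. For the counts of 5, higher at D7 and lower in aged than in young D0 skin, smaller moves are not listed. Lower at D5 (0) were 2 with the spike-in scaling, 1 with the authors' values and 1 with an offset of 16. Higher at D7 (5) were 10 with no normalization and with the spike-in scaling, 2 with the 75th percentile, 3 with cyclic loess, 9 with the authors' values, 8 without the dim filter and 3 with detection on both arrays. Lower at D7 (0) were 2 with the 75th percentile and 1 without the dim filter. Higher in aged than in young D0 skin (0) was 1 with the 75th percentile and with cyclic loess. Lower (5) were 11 with no normalization, 10 with the spike-in scaling, 1 with the 75th percentile, 10 without the dim filter and 3 with detection on both arrays. Of the values of single members under alternatives, 156 stayed within the spot SD and 228 did not. Signal over background limits 2 members on aged D0 to a bound.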
